A study of Homo sapiens with 8 samples.

Results

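JAK1, the signal transducers and activators of transcription STAT2, STAT3, STAT5A and STAT6, and the interferon regulatory factors IRF1, IRF3, IRF7 and IRF9 were followed in MDA-MB-231 cells given estradiol. These 9 genes were chosen by symbol as signalling factors of the JAK-STAT and IRF families, and each matched 1 row among the 31412 named gene rows of the arrays. MDA-MB-231 is a triple-negative breast cancer line, and the derivative used here makes oestrogen receptor beta (ERβ, from ESR2) under doxycycline control. It was maintained under blasticidin and zeocin. All cultures of both groups received 100 ng/ml doxycycline, in medium with charcoal-stripped serum. The vehicle group (3 cultures) then received ethanol and the estradiol group (3 cultures) 1 nM estradiol for 5 days. The submitters sent further RNA of 1 culture per treatment, because those cultures had varied slightly from the rest, which made 8 arrays. By the titles these were vehicle culture 3 and estradiol culture 1, and both arrays of such a culture were averaged. No culture went without doxycycline and none lacked the ERβ construct, so an effect through ERβ and another effect of estradiol cannot be told apart. The labels do not say whether the line is 1 clone. They do not give a separate passage or day for each replicate, so each p-value reflects the spread among these cultures alone, which may be technical.

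Cytokines and interferons bind receptors that carry Janus kinases such as JAK1, and the kinases phosphorylate STAT proteins, which then enter the nucleus. STAT2 joins IRF9 in the complex ISGF3, which binds the interferon-stimulated response element (ISRE) of antiviral genes, while other STAT dimers bind the gamma-activated site (GAS). IRF3 and IRF7 are activated by sensors of nucleic acids and switch on interferon genes, and IRF1 is an early interferon-induced factor. These proteins are controlled largely by phosphorylation, which arrays of RNA do not measure.

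The RefSeq promoter table (GRCh38.p14) held 11 windows of 300 bases for 7 of the 9 genes, each from 250 bases before a transcript start to 50 after it. IRF3 and IRF7 had no match. Windows were searched on both strands for 6 motifs, and the stretches are shown because they hold the only matches to the GAS or its longer form among the 11 windows. JAK1, which rose with estradiol, had neither. The GAS (TTCNNNGAA) stood in windows of 2 of the 7 genes, IRF9 and IRF1, as in 9.38% of all 27305 genes with a window (7.66% of 35116 windows). The longer form preferred by STAT6 (TTC and GAA with 4 bases between) stood in a window of 1 gene, STAT5A, which did not pass the test, as in 7.80% of all genes (6.44% of windows). The 3 stretches lie upstream of the start and are written 5′ to 3′ on the strand of the gene with the match in capitals: IRF9 on the plus strand at chr14:24161152-24161260, IRF1 on the minus strand at chr5:132490839-132490947 and STAT5A on the plus strand at chr17:42287189-42287269.
IRF9: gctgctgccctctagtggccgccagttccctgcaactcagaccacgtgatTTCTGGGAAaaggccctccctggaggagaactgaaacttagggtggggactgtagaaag
IRF1: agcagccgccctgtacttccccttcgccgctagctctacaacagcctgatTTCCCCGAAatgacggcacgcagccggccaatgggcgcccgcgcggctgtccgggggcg
STAT5A: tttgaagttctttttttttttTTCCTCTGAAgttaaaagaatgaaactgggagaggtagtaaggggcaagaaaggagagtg

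The match began 63 bases before the start in IRF9, 124 before it in IRF1 and 229 before it in STAT5A. The ISRE core (GAAA and again GAAA, with 2 bases between) was in none of the 11 windows and in 3.57% of all. The oestrogen response element (GGTCA and TGACC with 3 bases between) was likewise in none, and in 0.057% of all windows. The AP-1 motif (TGANTCA) was in none, and in 7.71% of all. The single arm of the oestrogen response element (GGTCA) stood in windows of 5 of the 7 genes (STAT3, STAT5A, STAT6, IRF9 and JAK1). This arm, which the full element contains, was in windows of 42.6% of all genes (37.4% of windows). JAK1 and STAT5A had 3 windows each and the other genes 1. A match describes the letters only, and no binding was measured.

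Between 10172 and 11123 rows were detected per array (detection p under 0.01), with a median raw signal of 66.3 to 75.4, and the number of arrays limits the precision. A row was tested where at least 3 of 8 arrays detected it. ESR2 was detected on all arrays, at log2 values of 11.46, 11.14 and 11.43 in vehicle cultures 1 to 3 and 10.23, 10.11 and 10.18 with estradiol. It was lower with estradiol (log2 change -1.17, SE 0.118, adjusted p = 5.89e-05, limma). The repeat array of vehicle culture 3 correlated with the first array of that culture at r = 0.979, across genes, below every pair of different vehicle cultures (0.984 to 0.992). Arrays lay on 2 chips, chip A with 2 vehicle and 1 estradiol array and chip B with 2 vehicle and 3 estradiol arrays. Within chip A the lone estradiol array is assumed to vary like the vehicle arrays, so a p there says little, and its sizes are what can be compared. Of the 8 basal breast cancer markers all were detected, with a summed raw signal of 47538 to 60619 on vehicle arrays and 74863 to 77792 on estradiol arrays. Of these markers 4 rose, EGFR fell (log2 change -0.41) and 3 did not pass (limma, adjusted p under 0.05). ESR1, PGR and FOXA1 were detected on no array, and the 9 luminal markers summed to 6583 to 9789 in vehicle and 22752 to 28685 with estradiol. KRT19 (raw signal 3641 to 18893 over all arrays) and KRT8 (1804 to 8061) were the largest in these sums. Of the 5 luminal markers tested, KRT19, KRT8 and EPCAM rose, GATA3 fell (log2 change -0.45) and KRT18 did not pass (limma, adjusted p under 0.05). Of 12 leukocyte markers 5 were detected on at least 1 array (CD14, CD68, LYZ, CD79A and HLA-DRA), and PTPRC and CD3E on none. LYZ (log2 change 0.95, detected on 4 of 8 arrays) and CD68 (0.41) rose, and the other 3 did not pass (limma, adjusted p under 0.05). The leukocyte sums were 1213 to 1536 in vehicle and 1540 to 1675 with estradiol. Of 8 fibroblast markers 1 was detected (sums of 553 to 677 and 538 to 574), and of 5 endothelial markers 0. The part of these shifts in the results that follow was not tested. In RNA from whole cultures, a change in the share of cells of a kind and a change in RNA per cell cannot be told apart.

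With estradiol IRF9, the DNA-binding subunit of ISGF3, rose 2.08-fold and JAK1 1.97-fold. IRF1 rose 1.40-fold. Of the 8 genes tested after the detection filter these 3 rose, 0 fell and 5 did not pass (limma, adjusted p under 0.05). For comparison, 13.5% of all 11191 rows tested rose at that threshold and 14.0% fell, together 27.5%. At an unadjusted p under 0.05, 4 of the 8 were higher and 0 lower. The share of all rows at an unadjusted p under 0.05 was not computed, and it cannot be below those at the adjusted threshold. The median log2 change of the 8 genes was 0.25, against -0.02 over all rows tested. IRF7, the ninth gene, was set aside by the filter and is treated after the others.

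**Figure D1:**
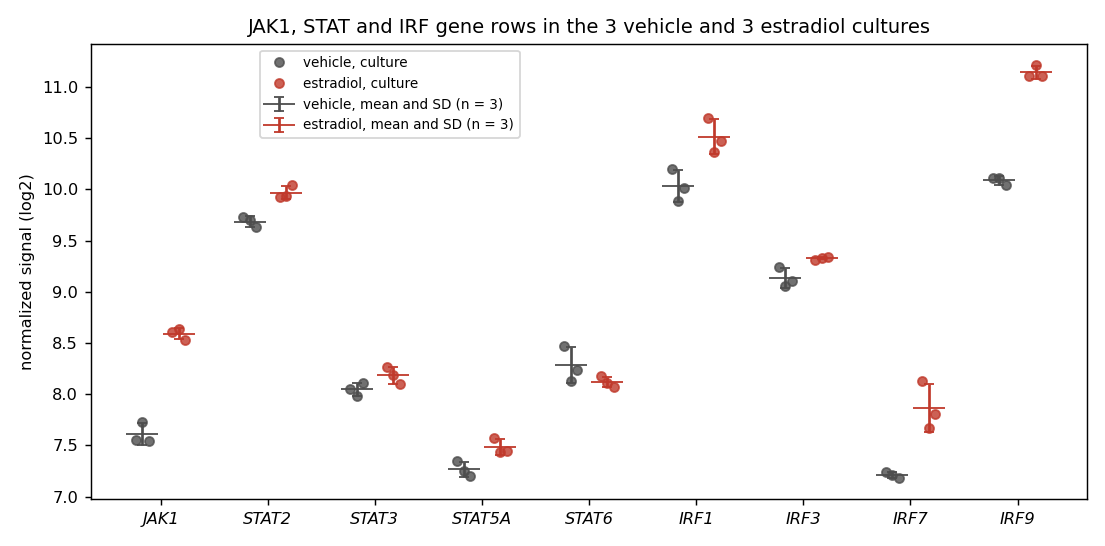
Normalized signal (log2, vertical axis) of the 9 genes in each of the 3 vehicle (grey) and 3 estradiol (red) cultures, with mean and SD. Vehicle and estradiol cultures lie apart for JAK1, STAT2, STAT5A, IRF1, IRF3, IRF7 and IRF9 and overlap for STAT3 and STAT6. Levels of different genes come from different probes and cannot be compared.

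JAK1, the kinase that serves type I, type II and type III interferon receptors and the receptors that use gp130, stood at log2 values of 7.55, 7.73 and 7.54 in vehicle cultures 1 to 3. In estradiol cultures 1 to 3 it stood at 8.60, 8.64 and 8.53. The lowest estradiol culture was above the highest vehicle culture. The means were 7.61 ± 0.107 and 8.59 ± 0.0526 (SD, n = 3 each), a log2 change of 0.98 (SE 0.108, 95% interval 0.743 to 1.22, adjusted p = 0.000101, limma). Raw signals were 182 to 251 on the 4 vehicle arrays and 433 to 494 on the 4 estradiol arrays. The vehicle 3 repeat array was 0.63 above the first array of its culture in log2, and without that repeat the change was 1.09 (adjusted p = 0.000214, limma). Within chip A the change was 0.84 (adjusted p = 0.174) and within chip B 1.13 (adjusted p = 0.00103, limma). The size rests on the background correction, since the log2 change was 0.31 when all rows served to infer the background (adjusted p = 0.00107, limma) and 0.85 in the values the authors normalized.

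Of the 4 STAT genes none passed. STAT2, the ISGF3 subunit that carries the transactivation domain, was at 9.73, 9.70 and 9.63 in vehicle and 9.93, 9.94 and 10.04 with estradiol. Its groups did not overlap. The log2 change was 0.28 (SE 0.103, 95% interval 0.0545 to 0.511), with an adjusted p = 0.0654 (limma). It passed under 9 of 24 alternatives, among them no background correction (0.26, adjusted p = 0.0232), the values the authors normalized (0.24, adjusted p = 0.0458) and the chip as a covariate (0.29, adjusted p = 0.0143). Within chip A it was 0.08 and within chip B 0.41 (adjusted p = 0.938 and 0.0520, limma). Over the alternatives the adjusted p ran from 0.00109 to 0.938.

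STAT5A, which transmits prolactin, growth hormone and interleukin signals, was at 7.35, 7.25 and 7.20 in vehicle and 7.57, 7.43 and 7.45 with estradiol. The groups did not overlap, but the log2 change of 0.22 (SE 0.106) had an adjusted p = 0.150 (limma). With the chip as a covariate it was 0.33 (adjusted p = 0.00582). STAT5A has a near-identical paralog, and whether its probe also binds that transcript was not examined. STAT3, the main STAT downstream of IL-6 and gp130, was at 8.05, 7.98 and 8.11 in vehicle and 8.26, 8.18 and 8.10 with estradiol. Those groups overlapped, with a log2 change of 0.14 (SE 0.105, 95% interval -0.0979 to 0.369, adjusted p = 0.371, limma). STAT6, the STAT of IL-4 and IL-13, was at 8.47, 8.13 and 8.24 in vehicle and 8.18, 8.11 and 8.08 with estradiol. Vehicle culture 1 was highest and the groups overlapped. The log2 change was -0.16 (SE 0.118, 95% interval -0.423 to 0.102, adjusted p = 0.344, limma), and it was 0.06 when arrays were centred on their medians.

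Among the IRF genes IRF9 had the largest log2 change in the filtered test. It was at 10.11, 10.11 and 10.04 in vehicle and 11.11, 11.22 and 11.11 with estradiol, with no overlap. The means were 10.09 ± 0.0428 and 11.14 ± 0.0636 (SD, n = 3 each), a log2 change of 1.06 (SE 0.102, 95% interval 0.828 to 1.28, adjusted p = 4.41e-05, limma). It ranked 292 of 11191 rows by rise. Raw signals were 966 to 1265 on vehicle arrays and 2009 to 2695 on estradiol arrays, and the lowest estradiol array was the repeat of culture 1. Within chip A the change was 1.12 (adjusted p = 0.0507) and within chip B 1.07 (adjusted p = 0.000493, limma). When all rows served to infer the background it was 1.44.

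**Figure D2:**
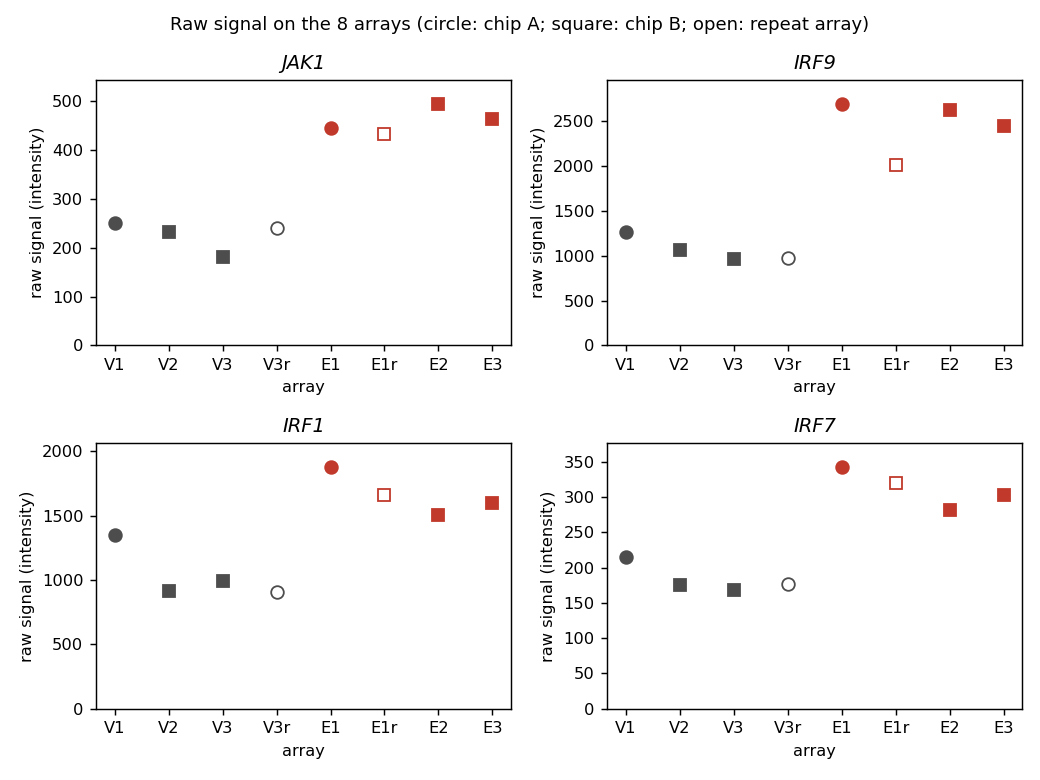
Raw signal intensity (vertical axis, from 0) of JAK1, IRF9, IRF1 and IRF7 on each of the 8 arrays, vehicle (V) in grey and estradiol (E) in red, with circles for chip A, squares for chip B and open symbols for repeat arrays (r). On both chips every estradiol array lies above every vehicle array in each of the 4 panels, from 182 to 251 against 433 to 494 for JAK1.

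IRF1, which binds promoters of antigen presentation and guanylate-binding protein genes, was at 10.20, 9.89 and 10.01 in vehicle and 10.70, 10.37 and 10.48 with estradiol. The groups did not overlap, though estradiol culture 2 was only slightly above vehicle culture 1. The means were 10.03 ± 0.157 and 10.51 ± 0.169 (SD, n = 3 each), a log2 change of 0.48 (SE 0.129, 95% interval 0.196 to 0.768, adjusted p = 0.0192, limma). The call rested on the cultures used. It was lost without vehicle culture 2 (0.41, adjusted p = 0.0542), vehicle culture 3 (0.47, adjusted p = 0.0698), estradiol culture 1 (0.39, adjusted p = 0.0561) or estradiol culture 3 (0.50, adjusted p = 0.0550, limma). Culture 1 was the highest of its group in both treatments. Within chip A the log2 change was 0.60 (adjusted p = 0.350) and within chip B 0.57 (adjusted p = 0.0172).

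IRF3, which is present without stimulation in most cells and is activated by phosphorylation, was at 9.24, 9.06 and 9.10 in vehicle and 9.32, 9.33 and 9.34 with estradiol. Estradiol cultures lay close together and above all vehicle cultures. The log2 change of 0.19 (SE 0.105, 95% interval -0.0388 to 0.426) had an adjusted p = 0.198 (limma). It was 0.29 within chip A and 0.16 within chip B. Over all 8 genes tested, 6 had groups that did not overlap, as did 42.8% of all rows tested.

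IRF7, which amplifies type I interferon production, had a bright signal but detection p-values of 0.0106 to 0.108, so no array counted as detecting it. Its row combines several probes, and the detection p of such a row is not a rank of its own signal. Raw signals were 168 to 215 on vehicle arrays and 282 to 342 on estradiol arrays. In log2, vehicle cultures 1 to 3 were at 7.25, 7.21 and 7.18, and estradiol cultures at 8.13, 7.67 and 7.80, with no overlap. In the fit without a filter IRF7 rose by 0.66 in log2, or 1.57-fold (SE 0.117, 95% interval 0.382 to 0.928, adjusted p = 0.0124, limma), where 4.87% of all 31412 rows rose and 9.50% changed. In a filter that also kept bright combined rows, added after the data were seen, it likewise passed (adjusted p = 0.00403), where 13.5% of rows rose. On chip A the log2 change was 0.83 (adjusted p = 0.296). The call was lost without vehicle culture 3 (0.64, adjusted p = 0.0573) and when all rows served to infer the background (0.13, adjusted p = 0.102). Within chip B the change was 0.74 (adjusted p = 0.0385).

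**Figure D3:**
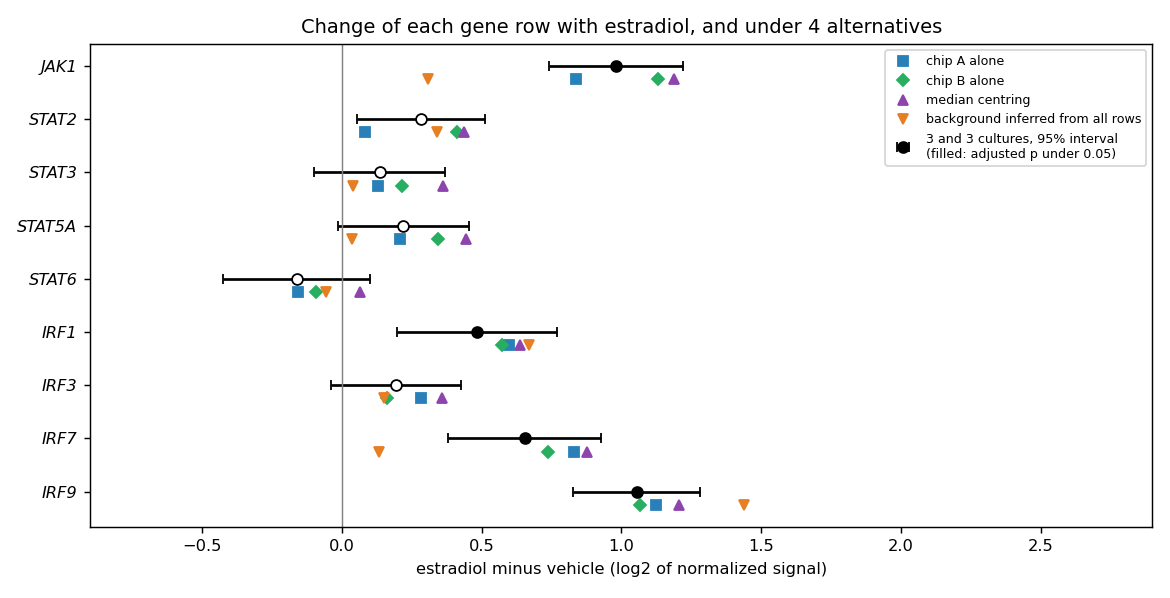
Log2 change (estradiol minus vehicle, horizontal axis) of each gene with its 95% interval, filled where the adjusted p was under 0.05, and the change within each chip, with median centring, and with all rows used to infer background. IRF7 is from the fit without a filter. The changes of JAK1 and IRF7 fall to 0.31 and 0.13 under the last of these, and STAT6 turns from -0.16 to 0.06 with median centring.

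The scaling of arrays bears on the small changes. Centring each array on its median in place of quantile normalization moved the median of all rows tested from -0.02 to 0.14. Of the 8 genes 6 then passed, STAT2, STAT3 and STAT5A with the other 3. Of all 11191 rows tested 2230 then rose and 627 fell, against 1507 and 1565 with quantile normalization. Relative to the median of 0.14 STAT2 stood at 0.29, STAT5A at 0.30, STAT3 at 0.22, IRF3 at 0.22 and STAT6 at -0.08. In the quantile-normalized values the same differences from the median were 0.31, 0.24, 0.16, 0.22 and -0.14. IRF9 and JAK1 stood 1.07 and 1.05 above the median with centring, and 1.08 and 1.00 without.

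The other genes of the pathway were described by role, from 11 lists with 252 distinct genes, of which 148 were tested. Of these 50 rose, 24 fell and 74 did not pass, where 13.5% of all rows tested rose and 14.0% fell. The counts by list are to be read against those shares. The lists were chosen with earlier results of these data known. Bright combined rows that the filter set aside numbered 17 of the 104 genes not tested. With the later filter that kept such rows, 81 pathway genes were called against 74. Of the 17, named after their values were seen, OAS3 (1.29), ID1 (1.29), IL4R (0.51), PTPN6 (0.47) and ADAR (0.35) then rose. PTPN2 (-0.58) and PIM3 (-0.43) fell, and the others did not pass. The counts by list leave these 17 out.

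**Figure D4:**
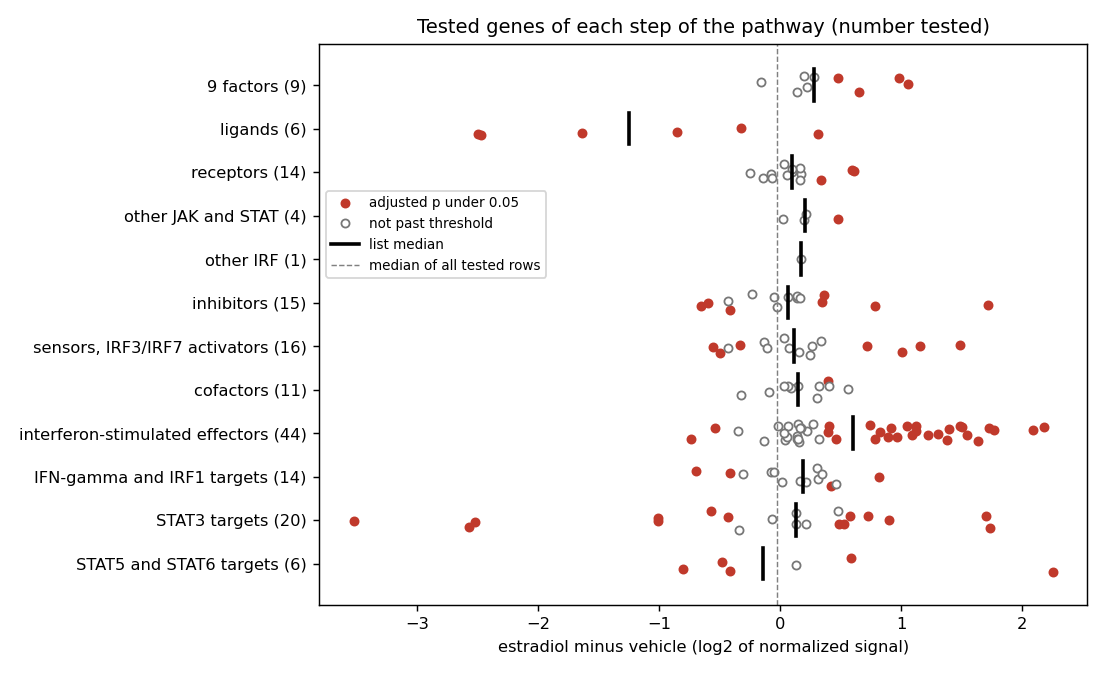
Log2 change (estradiol minus vehicle, horizontal axis) of each tested gene by role in the pathway, red where the adjusted p was under 0.05, with the list median (bar) and the median of all rows tested (dashed line, -0.02). IRF7 stands among the 9 factors from the fit without a filter. Most tested ligands lie left of the line, with a median of -1.25, and interferon-stimulated effector genes lie mostly right of it, with a median of 0.60.

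Most ligand genes that could be tested fell. Of 6 tested, 5 fell and 1 rose, with a median log2 change of -1.25. The gp130 cytokine genes IL6 (-2.50) and IL11 (-2.47) fell most, followed by CSF2, which encodes GM-CSF (-1.64), and CLCF1, another gp130 cytokine gene (-0.85). None of the 9 interferon genes listed (IFNA1, IFNA2, IFNB1, IFNE, IFNK, IFNG and the lambda genes IFNL1, IFNL2 and IFNL3) was detected on any array. Their raw signals were 46.7 to 76.9, and the lowest detected single-probe signal was 78.1. Their RNA was thus not detectable on these arrays.

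Of 14 receptor genes tested, 3 rose, 0 fell and 11 did not pass (limma), and at an unadjusted p under 0.05 the counts were 3 and 0. Their share of calls at the adjusted threshold was near that of all rows tested (27.5%), and no share at the unadjusted p was computed. Those that rose were EPOR, the erythropoietin receptor (0.59), IL27RA (0.61) and IL10RB, the chain shared by the receptors of IL-10 and lambda interferons (0.34). IFNLR1, the other lambda interferon chain, was at -0.25 (adjusted p = 0.151, limma). Chosen after their values were seen, IFNAR1 was at 0.03 and IFNGR1 at 0.17, neither past the threshold. Of the 4 other JAK and STAT genes tested 1 rose and 3 did not pass, and 1 further IRF gene tested did not pass.

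Inhibitor genes moved in both directions. Of 15 tested 4 rose and 3 fell, while 8 missed the threshold. ISG15, a ubiquitin-like modifier that also stabilises a brake on interferon signalling, rose by 1.72 in log2 and TRIM21, a ubiquitin ligase, by 0.79. PIAS3, an inhibitor of STAT3, rose by 0.35 and IRF2BP1 by 0.36. PIAS2 fell by 0.65, SOCS7 by 0.60 and SOCS2 by 0.42. The feedback inhibitor genes SOCS1 (0.14) and SOCS3 (-0.03), both induced by STAT factors, did not pass, and SOCS3 was detected on 3 of 8 arrays. The list median was 0.07.

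Among sensors and activators of IRF3 and IRF7, 4 of 16 rose and 3 fell, while 9 missed the threshold. The median was 0.11. Those that rose were IFIH1, the sensor MDA5 (1.48), STING1, an adaptor listed as TMEM173 (1.16), DHX58, the protein LGP2 (1.01) and RIGI, an RNA sensor listed as DDX58 (0.72). Those that fell, named after their values were seen, were IKBKE, a kinase of IRF3 and IRF7 (-0.56), the adaptor gene TRAF3 (-0.50) and CGAS, a DNA sensor listed as C6orf150 (-0.33). Of 11 cofactors 1 rose, NCOA1 (0.39), 0 fell and 10 did not pass (limma). At an unadjusted p under 0.05, 4 cofactors were higher, among them MED14 (0.40) and NMI (0.56), and 1 was lower, the nuclear import gene KPNB1 (-0.32). No share of all rows at that p was computed to set beside these counts.

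Target genes were counted list by list. Of 44 interferon-stimulated effector genes tested 25 rose and 2 fell, while 17 missed the threshold. The median was 0.60. Examples were ISG20 (2.18), MX1 (2.09), MX2 (1.77) and HERC6 (1.51). A gene near the detection floor in 1 group could enter the test only through the other group. OAS1, named after its values were seen, was detected on 4 of 8 arrays. Its vehicle mean (log2 4.65) was below the lowest detected single-probe level of the vehicle arrays (5.24 to 5.38). Among rows detected on all 8 arrays 19 genes of this list rose, where 1172 of 8655 rows did. Of 14 interferon gamma and IRF1 target genes 2 rose and 2 fell, while 10 missed the threshold. The median was 0.19. SERPING1 (0.82) and GBP4 (0.42) rose, while CD274, which encodes PD-L1 (-0.69), and GBP5 (-0.42) fell. SERPING1 was detected on 5 of 8 arrays, and its vehicle mean (log2 4.99) was below the lowest detected single-probe level of the vehicle arrays. CD274 was detected on 6 arrays and GBP5 on 7. Their estradiol means were 5.14 and 5.36, where the lowest detected single-probe level of the estradiol arrays was 5.12 to 5.36. Whether the lists differ was not tested.

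STAT3 target genes split evenly. Of 20 tested 7 rose and 7 fell, and the median was 0.13. LCN2 (-3.52) and SAA1 (-2.57) fell, as did SAA2 (-2.52), named after its value was seen. SERPINA3 (1.74) rose, but only 4 of 8 arrays detected it. Its vehicle mean (log2 4.70) was below the lowest detected single-probe level of the vehicle arrays (5.24 to 5.38). MUC1, a mucin gene, also rose (1.70). Of 6 STAT5 and STAT6 target genes 2 rose, 3 fell and 1 did not pass. MAOA, which IL-4 induces in monocytes, rose by 2.25 and TGM2 by 0.58, while the chemokine gene CCL26 fell by 0.80 and PIM2 by 0.48. Many genes of these lists answer to other pathways too.

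The rows most like IRF9 over the 6 cultures were the interferon-stimulated gene IFI6, TRIB1 and PNMA2, by the distance between log2 values centred on each row's mean. These distances were 0.132, 0.132 and 0.134, and the changes 1.13, 1.01 and 1.06. Those most like STAT6, which had the lowest change of the 8, were LOC653333, NMB and LOC728014, at distances of 0.0643 to 0.0692, and none of the 3 passed the threshold.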

How the data were processed

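Trizol-extracted total RNA was labelled as biotinylated cRNA and put on Illumina arrays, per the labels' protocols. The authors deposited 2 tables. The first gives an intensity and a detection p-value per gene row and array, without normalization between arrays, per the file headers. The second, of 31405 rows, gives intensities that the authors normalized by a procedure that the labels and headers do not name. Of 31412 named rows, 24130 were taken as single probes, because each detection p-value times 770 came within 0.002 of a whole number. Titles assign the estradiol repeat to culture 1 but the series text to replicate 3, and titles were followed.

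With R 4.3.3 and limma 3.58.1, signals were background-corrected (normexp, controls inferred from single-probe rows), offset by 16, quantile normalized and log2 transformed, and averaged per culture. lmFit and eBayes were run over all 11191 rows detected at p under 0.01 on at least 3 arrays, with Benjamini-Hochberg adjustment and a threshold of 0.05. The fit was tested on simulated data. Alternatives covered repeats, blocks, chips, background, offset, scaling, filter, variance model, array weights and each culture left out. Named genes were the 9 factors, up to 4 genes per list by p, inhibitors, and the 3 rows nearest to the factors with the highest and lowest change. The factors and lists were chosen with earlier results of these data known. Same-numbered cultures correlated at 0.132, 0.131 and -0.0316 in their deviations, and differently numbered cultures at -0.160 to 0.0875. These values do not settle whether cultures were paired. The main fit did not pair them, and a replicate block was run as an alternative.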

Additional observations from a re-analysis of the deposited data

Results flagged for a closer look

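The first array of vehicle culture 3 lay far from the other vehicle arrays for IRF9, at a log2 value of 9.95 against 10.11 to 10.13 on the other 3, by Dixon's test on the 4 arrays of a treatment. Chance flags about 1 in 20 groups, and 18 groups (9 genes in 2 treatments) were looked at. Both arrays of that culture were averaged. Leaving out vehicle culture 3 gave a log2 change of 1.03 for IRF9.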

How the results depend on the processing

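IRF9 and JAK1 passed under 23 of the 24 alternatives run for each. The exception was chip A, whose 1 estradiol array leaves little to test with and where their log2 changes were 1.12 and 0.84. Over the alternatives their log2 changes ran from 0.98 to 1.44 and from 0.31 to 1.19. The number of the 9 factors called was 3 in the values given above. It was 5 with the chip as a covariate, 0 within chip A alone by limma (2 at an unadjusted p under 0.05), 6 with median centring, 5 without a detection filter and 6 with array weights. Without each culture in turn it was 2 to 3. With a replicate block it was 3, the same genes, and the block changed no call among the factors. Rows higher with estradiol numbered 1507, against 2371 with the chip as a covariate, 277 within chip A and 3079 with array weights. Rows lower numbered 1565, against 2680, 122 and 3413 in the same order, 627 with median centring and 915 to 1680 without each culture (915 without vehicle culture 3, 992 without estradiol culture 2 and 926 without estradiol culture 3). Rises were 49.1% of calls, and 78.1% with median centring, where 2230 rows were higher. These row counts are out of 11191 rows tested. Without a detection filter 1529 rows were higher and 1456 lower, out of 31412. The numbers of factors called are to be read against these counts. With the chip as a covariate and with array weights, more of all rows were called in both directions too. Whether the factors were called more often than other rows there was not tested. Pathway genes called numbered 74, and 24 within chip A. STAT6 was at 0.064 with median centring, which moved the median of all rows to 0.14, and relative to that median it was at -0.08. Chip A holds 3 arrays, and for the other moves the cause was not tested.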
